A study of Mus musculus with 21 samples.

Results

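Loss of the remaining copy of 3110043O21Rik, the mouse ortholog of C9orf72, was examined by setting lumbar spinal cords of null mice (C9orf72 -/-) against those of heterozygous mice (C9orf72 +/-) at 3 months of age. The comparison used 3 null and 3 heterozygous libraries of the 21 in the series, and the 3 wild type libraries (C9orf72 +/+) of the same age entered the model and are given as a further level. All of these mice were C57BL/6, and none of the groups carried a further allele or treatment, as far as the labels say. Total RNA came from frozen tissue, and the 3 month libraries were made with an Illumina TruSeq kit. The 17 month groups (4 libraries per genotype, Ion Torrent) were used only to look at the same genes in other mice. The labels name no Cre or promoter that would limit the loss to a cell type, and whole cord mixes neurons, glia, vessels and any attached tissue.

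C9ORF72 protein works in a complex with SMCR8 and WDR41 that acts on small GTPases of the Rab and Arf families and takes part in autophagy and in lysosome function. In people, a repeat expansion in the gene lowers its expression and leads to frontotemporal dementia and amyotrophic lateral sclerosis. In the spinal cord the gene is expressed in neurons and in microglia. Setting null against heterozygous mice asks what the removal of the second copy adds once the first is lost.

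The deposited values are called RPKM here, a measure of read numbers scaled to transcript length and to the mapped reads of the library. At 3 months they summed to between 286889 and 292460 per library, and the read totals themselves are unknown. The spacing of low values put null replicates 2 and 3 at 0.808 and 0.473 of the depth of null replicate 1, and heterozygous replicates 1, 2 and 3 at 0.589, 0.842 and 0.653 of it. Null replicate 3 was thus the shallowest and null replicate 1 the deepest of the 6, by 2.11 times. Pairs of these 6 libraries correlated at 0.996 to 0.998 across genes, and the median log2 difference over all tested genes was -0.00014.

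Each of the 3 null libraries held genes or stretches that stood apart from the other libraries of its age. Null replicate 1 had 23 genes at 1 RPKM or more and at least 2 times the highest of the other 8 libraries of that age, null replicates 2 and 3 had 2 each, and all heterozygous and wild type libraries had 0. On the low side, at 0.5 or less of the lowest of the other 8, the null libraries had 0 genes, heterozygous replicate 2 had 1 and wild type replicate 1 had 3. The 23 included genes of fat tissue, those of null replicate 2 included the peripheral myelin gene Prx, and those of null replicate 3 were Ch25h and Hist1h4c. Null replicate 1 also stood higher over a stretch of chromosome 7, and null replicates 2 and 3 lower over a short stretch of chromosome 11. These signals were found after the values were seen and are described below with their values, and the gene lists whose counts moved most with a library are given without it as well.

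The target followed the labels in every library. 3110043O21Rik (chromosome 4, 35191285 to 35226175, minus strand, GRCm38, protein coding) measured 0.599, 0.422 and 0.545 RPKM in null cords, against 6.66, 6.23 and 6.31 RPKM in heterozygous cords and 12.1, 12.2 and 12.1 RPKM in wild type cords. The 3 groups did not overlap. Null cords averaged 0.522 ± 0.0904 RPKM and heterozygous cords 6.40 ± 0.228 RPKM (SD, n = 3 each), so null cords held 8.16% of the heterozygous level. The log2(RPKM + 0.5) difference was -2.76 (SE 0.06, limma adjusted p = 9.70e-11), and the exact two-sided permutation test gave p = 0.1, the smallest that 3 against 3 libraries allow. An annotated antisense gene overlaps the target, and strand use in the counting is not stated, so reads from the antisense gene cannot be told apart from those of the target.

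**Figure D1:**
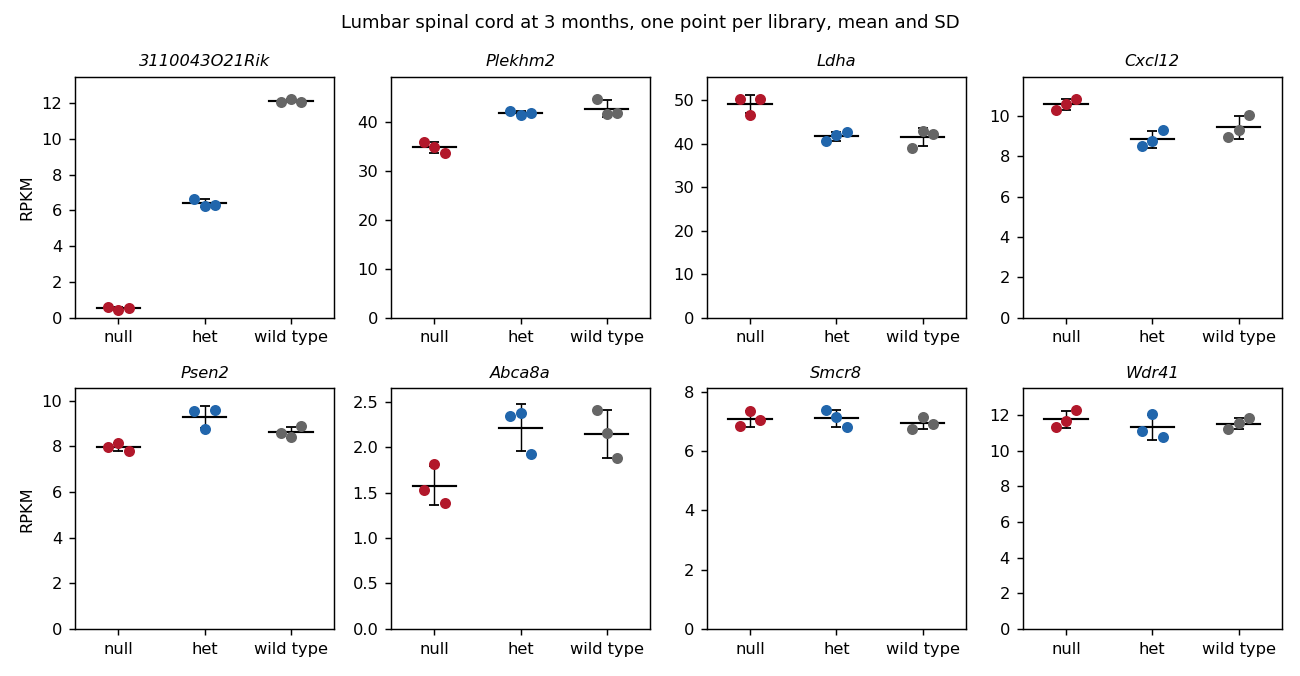
RPKM (vertical axis, linear) of 8 genes in the 3 null, 3 heterozygous and 3 wild type libraries at 3 months, with a point per library and the mean and SD per group. The target and Plekhm2 are lower in all null libraries and pass the adjusted threshold. Ldha and Cxcl12 are higher and Psen2 and Abca8a lower, none of them passing it. Smcr8 and Wdr41 overlap between null and heterozygous cords.

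Both partners of the complex overlapped between the groups. Smcr8 measured 6.85, 7.36 and 7.04 RPKM in null cords and 7.37, 7.15 and 6.80 RPKM in heterozygous cords. Wdr41 measured 11.3, 11.7 and 12.3 RPKM in null cords and 11.1, 12.1 and 10.8 RPKM in heterozygous cords, a log2 difference of 0.05 (SE 0.05). The sign of the Smcr8 difference turned with some settings, and its size stayed within 0.02 there. Around the target, 24 other genes within 5 Mb were tested, and 0 passed the adjusted threshold or an unadjusted limma p under 0.05. Their log2 differences lay between -0.10 and 0.10, with a median of 0.01.

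Over the whole transcriptome, null and heterozygous cords differed in few genes. Of 13850 genes tested, 2 passed a limma adjusted p under 0.05, or 0.0144%, and both fell in null cords. They were the target and Plekhm2. With no adjustment, 902 genes had a limma p under 0.05, or 6.51%, of which 367 were higher in null cords (2.65%) and 535 lower (3.86%). The null and heterozygous libraries did not overlap in 1646 genes, or 11.9%, with 768 higher in null cords (5.55%) and 878 lower (6.34%). The unadjusted count depended on the libraries. It was 1593, or 11.6%, without null replicate 1, 676 without null replicate 2 and 584 without null replicate 3, and leaving out heterozygous replicates 1, 2 or 3 gave 564, 829 or 919.

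**Figure D2:**
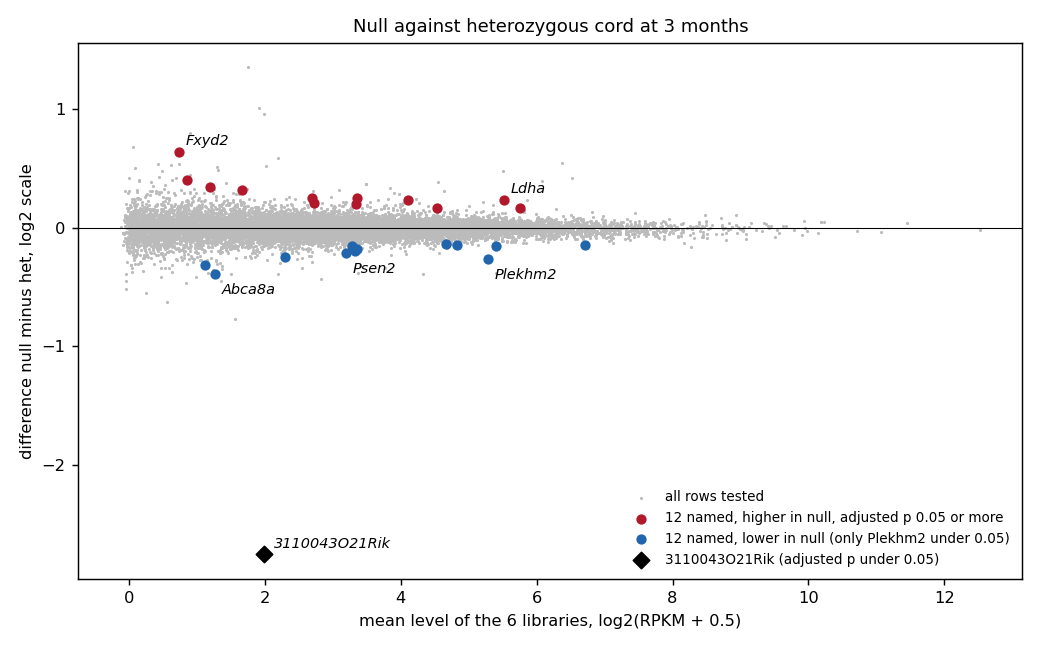
Each point is a gene tested at 3 months, placed by its mean level (horizontal axis, log2 scale) and its log2(RPKM + 0.5) difference, null minus heterozygous (vertical axis). The target at -2.76 and Plekhm2 at -0.26 are the 2 genes past the adjusted threshold, and the 12 genes named in each direction are coloured.

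Plekhm2, also called SKIP, is the adaptor that links lysosomes carrying the small GTPase ARL8 to the motor kinesin-1 and so draws them toward the cell periphery. It lies on the same chromosome as the target but far from it (chromosome 4, 141625734 to 141664899, minus strand, GRCm38). It measured 35.9, 35.02 and 33.8 RPKM in null cords, against 42.2, 41.5 and 42.0 RPKM in heterozygous cords and 44.8, 41.6 and 41.9 RPKM in wild type cords. All null libraries lay below all heterozygous and wild type libraries, while heterozygous and wild type libraries overlapped. Null cords averaged 34.9 ± 1.09 RPKM and heterozygous cords 41.9 ± 0.382 RPKM (SD, n = 3 each), so null cords held 83.3% of the heterozygous level. The log2 difference was -0.26 (SE 0.03, limma adjusted p = 0.0405), and the exact permutation p was 0.1, the smallest possible.

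The Plekhm2 call was close to the threshold. The limma adjusted p was 0.203 when every gene was tested, 0.0534 after quantile normalization, 0.317 in a fit that was neither trended nor robust, and 0.0514 in a model of the null and heterozygous groups alone. It also missed the threshold without any of null replicates 2 and 3 (0.287 and 0.252), heterozygous replicates 1 to 3 (0.337, 0.238 and 0.209) or wild type replicate 3 (0.0864). The direction was the same in all of these. Without null replicate 1 the log2 difference was -0.28, and 7 genes passed, the other 5 being those of the chromosome 11 stretch.

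Genes next to Plekhm2 did not pass the threshold. Of 20 other genes tested within 0.5 Mb, 0 passed the adjusted threshold and 1, Kazn, had an unadjusted limma p under 0.05. Kazn, named after its value was seen, averaged 30.0 ± 0.810 RPKM in null cords and 31.7 ± 0.861 RPKM in heterozygous cords (SD, n = 3 each). The log2 differences of the 20 lay between -0.30 and 0.18.

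Plekhm2 fell in null cords, and Ldha, described further on, had the smallest p among the genes higher there, so the 250 bases before a RefSeq start of each are printed here, read 5′ to 3′ on the gene's own strand (GRCm38.p6). The window of Plekhm2 is chr4:141664147-141664396 on the minus strand, and that of Ldha, for the first of 2 annotated starts, is chr7:46845554-46845803 on the plus strand. GENCODE also lists a transcript of each gene that starts further upstream, so that both windows lie within the gene as GENCODE spans it, and they overlap 0 of its exons. Capitals mark the E-box core CACGTG, a motif of basic helix-loop-helix factors such as TFEB, the regulator of lysosomal genes, and the GC box GGGCGG, a motif of the Sp family, or its reverse complement CCGCCC.
Plekhm2: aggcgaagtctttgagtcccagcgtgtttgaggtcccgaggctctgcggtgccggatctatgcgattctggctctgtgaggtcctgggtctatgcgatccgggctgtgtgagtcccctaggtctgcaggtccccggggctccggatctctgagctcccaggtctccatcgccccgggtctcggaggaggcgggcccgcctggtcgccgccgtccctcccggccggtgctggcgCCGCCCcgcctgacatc
Ldha: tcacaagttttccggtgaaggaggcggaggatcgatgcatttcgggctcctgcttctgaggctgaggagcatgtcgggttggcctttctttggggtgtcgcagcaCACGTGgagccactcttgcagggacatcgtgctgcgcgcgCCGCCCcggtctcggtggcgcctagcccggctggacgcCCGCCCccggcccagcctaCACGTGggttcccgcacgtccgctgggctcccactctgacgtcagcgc
The Plekhm2 window held 0 copies of CACGTG and 1 GC box, 17 bases before the start. The Ldha window held 2 copies of CACGTG, 145 and 48 bases before the start, and 2 GC boxes, 105 and 67 bases before it. Both strands were searched, CACGTG reads the same on each, and the motifs did not overlap each other. Of 32851 windows of this length, 6.02% held CACGTG and 32.7% a GC box. The G and C content was 68.8% for Plekhm2 and 67.2% for Ldha. A match is only a match of letters.

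The other genes of lysosome positioning and kinesin-1 transport were followed as a list of 25, all tested. Plekhm2 was the 1 member past the adjusted threshold. At an unadjusted limma p under 0.05 the list held 5 lower and 0 higher members, against 3.86% and 2.65% of all genes, and 8 members were lower and 1 higher with no overlap of libraries, against 6.34% and 5.55% of all genes. The unadjusted count was 5 lower and 3 higher without null replicate 1, or 32% of the list, against 11.6% of all genes. The median log2 difference of the list was -0.02, against -0.00014 for all genes. Its summed level was 1791 to 1807 RPKM in null libraries and 1835 to 1843 RPKM in heterozygous libraries. The list was chosen with the Plekhm2 result known.

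Among its unadjusted members, Borcs8 (listed as 2310045N01Rik), a subunit of the BORC complex that recruits ARL8 to lysosomes, measured 15.2, 14.5 and 15.7 RPKM in null cords and 17.2, 15.8 and 19.2 RPKM in heterozygous cords. The log2 difference was -0.19 (SE 0.06), and the highest null library lay just under the lowest heterozygous library. Bloc1s1, a subunit shared by BORC and BLOC-1, measured 51.2, 50.7 and 44.1 RPKM in null cords and 53.4, 52.2 and 53.3 RPKM in heterozygous cords, with null replicate 3 far below the other null libraries. Kif5a, the neuronal kinesin-1 motor and itself an amyotrophic lateral sclerosis gene, measured 301, 295 and 299 RPKM in null cords and 312, 311 and 311 RPKM in heterozygous cords, a log2 difference of -0.06 (SE 0.02). Klc4, a kinesin light chain, measured 12.4, 11.6 and 11.9 RPKM in null cords and 13.03, 12.8 and 12.5 RPKM in heterozygous cords. The ARL8 genes went different ways by small amounts. Arl8a measured 78.9, 78.5 and 79.9 RPKM in null cords and 80.2, 80.8 and 82.7 RPKM in heterozygous cords, and Arl8b 54.3, 56.0 and 57.4 RPKM in null cords and 53.3, 54.3 and 53.3 RPKM in heterozygous cords.

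Genes of the C9orf72 complex, its Rab partners and autophagy showed little difference. All 33 were tested, 0 passed the adjusted threshold, and 1, Map1lc3a, which encodes an LC3 protein of autophagosomes, had an unadjusted limma p under 0.05. It measured 89.8, 92.1 and 92.6 RPKM in null cords and 95.9, 94.4 and 95.7 RPKM in heterozygous cords. Sqstm1, the autophagy receptor p62, measured 187, 186 and 183 RPKM in null cords and 185, 187 and 183 RPKM in heterozygous cords. The list median was 0.01. At the unadjusted threshold, 4 of the 33 were higher and 0 lower without null replicate 1. That is 12.1% of the list, against 11.6% of all genes in both directions. Of 35 lysosomal enzymes and membrane proteins, 0 passed, and the unadjusted threshold was met by Ctsl, a cysteine protease of the lysosome, and Neu1, its sialidase. Ctsl measured 38.1, 39.3 and 40.3 RPKM in null cords and 36.0, 37.5 and 36.3 RPKM in heterozygous cords. Neu1 measured 12.9, 11.9 and 12.4 RPKM in null cords and 13.3, 13.4 and 12.99 RPKM in heterozygous cords. The median of this list was 0.00. Without null replicate 1 the unadjusted threshold was met by 3 higher and 2 lower members, or 14.3%, against 11.6% of all genes.

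No gene was called higher in null cords by limma, against 367 at the unadjusted threshold. The 12 genes with the smallest unadjusted p in that direction, taken among genes whose libraries did not overlap, had limma adjusted p between 0.489 and 0.737 and log2 differences between 0.17 and 0.64. Ldha, which turns pyruvate into lactate, led them. It measured 50.2, 46.6 and 50.2 RPKM in null cords, against 40.5, 42.0 and 42.6 RPKM in heterozygous cords and 39.1, 43.0 and 42.2 RPKM in wild type cords. Every null library lay above the other 6, and the log2 difference was 0.23 (SE 0.04, limma adjusted p = 0.489). Of 28 tested genes of glycolysis and the hypoxia response, Ldha was the 1 with an unadjusted p under 0.05, and the list median was 0.01. Pgk1, a glycolytic kinase, measured 239, 242 and 242 RPKM in null cords and 240, 237 and 232 RPKM in heterozygous cords.

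Fxyd2, a regulatory subunit of the sodium pump that is also typical of sensory neurons of the dorsal root ganglion, had the largest log2 difference of the 12, at 0.64 (SE 0.12). It measured 1.51, 1.73 and 1.32 RPKM in null cords and 0.813, 0.787 and 0.790 RPKM in heterozygous cords. Wild type cords measured 0.721, 1.16 and 0.709 RPKM, so wild type replicate 2 stood above the other wild type libraries, and without it Fxyd2 passed (limma adjusted p = 0.04996). Among 11 tested sodium pump and FXYD genes, Fxyd1 was the other with an unadjusted p under 0.05, at 48.4, 45.2 and 50.1 RPKM in null cords and 41.9, 44.6 and 45.6 RPKM in heterozygous cords. Among 10 tested genes of dorsal root ganglion neurons Fxyd2 was the 1 with such a p, and the median was 0.06. The summed level of the ganglion list was 160 to 170 RPKM in null libraries and 151 to 158 RPKM in heterozygous libraries. The part of ganglion tissue in the Fxyd2 difference was not tested.

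Cxcl12, the chemokine that binds the receptor CXCR4, measured 10.3, 10.6 and 10.8 RPKM in null cords, against 8.49, 8.75 and 9.29 RPKM in heterozygous cords and 8.95, 9.30 and 10.1 RPKM in wild type cords. All null libraries lay above the other 6, while heterozygous and wild type libraries overlapped. The log2 difference between null and heterozygous cords was 0.25 (SE 0.05). Gpr139, an orphan receptor of the nervous system, measured 1.49, 1.47 and 1.68 RPKM in null cords and 1.01, 1.13 and 1.00 RPKM in heterozygous cords. Gabrg3, a subunit of the GABA-A receptor, measured 2.06, 2.03 and 2.06 RPKM in null cords and 1.55, 1.53 and 1.43 RPKM in heterozygous cords. It lies on chromosome 7 just before the stretch in which null replicate 1 stood apart, but that library did not stand out for it. Gpx8, a peroxidase of the endoplasmic reticulum, measured 2.92, 2.83 and 3.30 RPKM in null cords and 2.34, 2.24 and 2.39 RPKM in heterozygous cords. The log2 differences of Acyp1, an acylphosphatase, Dnajc17, a J-domain protein, and Rgcc, a regulator of the cell cycle, were 0.24, 0.21 and 0.25.

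Hadhb, Etfa and Hibch, also among the 12, work in mitochondrial breakdown of fatty acids and of valine. Hadhb, a subunit of the trifunctional protein of beta-oxidation, measured 60.4, 55.8 and 53.8 RPKM in null cords and 48.7, 50.6 and 51.6 RPKM in heterozygous cords. Etfa, which carries electrons from acyl-CoA dehydrogenases, measured 25.4, 23.1 and 23.6 RPKM in null cords and 21.6, 21.95 and 20.5 RPKM in heterozygous cords. Hibch, a hydrolase of valine breakdown, measured 10.5, 10.1 and 10.4 RPKM in null cords and 9.13, 8.68 and 9.04 RPKM in heterozygous cords. Null replicate 1 was the highest null library for each of them. Without it the log2 differences of Hadhb, Etfa and Hibch were 0.12, 0.13 and 0.19, against 0.17, 0.17 and 0.20 with it.

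A list of 29 genes of fatty acid and branched-chain amino acid oxidation was written after these 3 were seen, so it supports nothing by itself. All 29 were tested, 0 passed the adjusted threshold, 8 had an unadjusted limma p under 0.05 with higher values in null cords, Hadhb, Etfa and Hibch among them, and 0 with lower, against 2.65% and 3.86% of all genes. The median log2 difference was 0.08, and 25 of 29 were positive, against 6908 of all 13850 genes. Acadm, the medium-chain acyl-CoA dehydrogenase, measured 17.6, 12.7 and 13.9 RPKM in null cords and 12.01, 12.4 and 12.3 RPKM in heterozygous cords. Without null replicate 1 the median was 0.03, 6 members (20.7%) had such a p, against 11.6% of all genes, and 21 were positive. Without heterozygous replicates 2 or 3 the number with such a p was 5 or 4 (17.2% or 13.8%), against 6.01% or 6.66% of all genes. Without null replicate 2 it was 12 (41.4%), against 4.90% of all genes. The summed level was 544 to 600 RPKM in null libraries and 530 to 532 RPKM in heterozygous libraries, and part of this list is abundant in fat tissue, whose genes were high in null replicate 1.

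The 12 genes with the smallest p in the lower direction had log2 differences between -0.14 and -0.39, and Plekhm2 was the 1 that passed. Psen2, a catalytic subunit of gamma-secretase, measured 7.97, 8.14 and 7.79 RPKM in null cords, against 9.57, 8.76 and 9.59 RPKM in heterozygous cords and 8.57, 8.41 and 8.89 RPKM in wild type cords. All null libraries were below the other 6, the wild type mean lay between the other means, and wild type and heterozygous libraries overlapped. The log2 difference was -0.21 (SE 0.04, limma adjusted p = 0.726). Psen2 was the 1 of 16 genes of gamma-secretase and the amyloid precursor family with an unadjusted p under 0.05, and the list median was -0.03.

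Abca8a, a lipid transporter of the ABC family, had the largest difference of the 12, with 1.53, 1.82 and 1.39 RPKM in null cords, against 2.35, 2.38 and 1.92 RPKM in heterozygous cords and 2.41, 2.15 and 1.88 RPKM in wild type cords. All null libraries were below the other 6, and the log2 difference was -0.39 (SE 0.10). Hyal2, a hyaluronidase, measured 3.77, 4.02 and 4.15 RPKM in null cords and 4.80, 4.65 and 5.0 RPKM in heterozygous cords. Pagr1a, a subunit of the KMT2C and KMT2D histone methyltransferase complexes, measured 27.5, 25.9 and 26.2 RPKM in null cords and 29.3, 28.9 and 30.0 RPKM in heterozygous cords. Each was the 1 member of its pathway list with an unadjusted p under 0.05, of 12 genes of hyaluronan turnover and of 10 genes of the methyltransferase complexes. The lists around Ldha, Fxyd2, Psen2, Hyal2 and Pagr1a were chosen with those genes' results known.

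Kcnj14, an inward rectifier potassium channel, measured 9.35, 8.60 and 8.50 RPKM in null cords, against 10.3, 10.2 and 9.97 RPKM in heterozygous cords and 8.44, 9.32 and 9.10 RPKM in wild type cords. Here null and wild type libraries overlapped and the heterozygous libraries were above both. Sncg, gamma-synuclein of sensory and motor neurons, measured 98.9, 96.2 and 103 RPKM in null cords and 115, 105 and 109 RPKM in heterozygous cords. Nans, the sialic acid synthase, measured 9.03, 8.94 and 9.31 RPKM in null cords and 10.3, 10.4 and 10.4 RPKM in heterozygous cords. The log2 differences of Egln2, a prolyl hydroxylase of the hypoxia response, Prr18, Plxdc1 and Pcdha9, a protocadherin, were -0.14, -0.15, -0.15 and -0.32.

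Wild type values were set beside the null and heterozygous values of the 24 genes, and which group had changed was not tested. This is a description, since the genes were chosen on the null and heterozygous values. The shares of all genes clear of wild type were not counted, so these counts describe the named genes only. Of the 12 higher genes, null libraries lay clear of all wild type libraries in 11, heterozygous libraries in 2, and the wild type mean was nearer the heterozygous mean in 11. The exception was Acyp1, with a wild type mean of 17.7 RPKM, against 18.1 RPKM in null cords and 15.3 RPKM in heterozygous cords. Of the 12 lower genes, null libraries lay clear of wild type in 8 and heterozygous libraries in 7, and the wild type mean was nearer the null mean in 6. Those 6 were Psen2, Pagr1a, Hyal2, Pcdha9, Kcnj14 and Nans. For Kcnj14 the means were 8.82 RPKM in null, 10.1 RPKM in heterozygous and 8.95 RPKM in wild type cords.

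Microglia, cells in which C9orf72 is known to act on lysosomes, showed little difference at 3 months. Of 20 homeostatic microglial genes, 0 passed and 2 had an unadjusted limma p under 0.05, 1 in each direction, with a list median of -0.04. Fcrls, a microglial Fc receptor-like gene, measured 3.38, 3.33 and 3.30 RPKM in null cords and 2.67, 2.49 and 3.19 RPKM in heterozygous cords. Selplg, a ligand of selectins, measured 7.91, 7.61 and 7.43 RPKM in null cords and 9.25, 8.41 and 8.18 RPKM in heterozygous cords. P2ry12, the purinergic receptor that marks resting microglia, overlapped at 7.74, 7.21 and 7.40 RPKM in null cords and 8.14, 7.44 and 7.07 RPKM in heterozygous cords. Tmem119 overlapped as well, at 5.51, 5.34 and 6.12 RPKM in null cords and 5.91, 5.74 and 6.53 RPKM in heterozygous cords. In whole cord, fewer cells of a type and less RNA per cell cannot be told apart.

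Immune activation lists held no member past either threshold in 5 cases. These were activated microglia (12 tested of 18, median 0.00), interferon response (15 of 20, median -0.06), antigen presentation (13 of 16, median 0.00), complement and Fc receptors (12 of 19, median 0.06) and inflammatory cytokines (8 of 21, median 0.06). The interferon list depended on heterozygous replicate 3. Without it, 6 of 14 tested members (42.9%) were lower in null cords at the unadjusted threshold and 0 higher, with a median of -0.15. All genes then gave 6.66% in both directions. Of 12 complement and Fc receptor genes, 2 (16.7%) were higher at that threshold without null replicate 2, against 4.90% of all genes in both directions. Of 18 genes of infiltrating myeloid cells 3 were tested, and Csf2ra, a receptor chain for GM-CSF, measured 6.21, 6.34 and 6.60 RPKM in null cords and 7.72, 6.99 and 7.32 RPKM in heterozygous cords. Ly6c1, shared with the endothelial list, measured 30.8, 35.5 and 34.4 RPKM in null cords and 27.4, 28.6 and 32.4 RPKM in heterozygous cords. Of 20 genes listed for T, NK and B cells, 17 had values at 3 months, and 0 reached the expression filter.

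**Figure D3:**
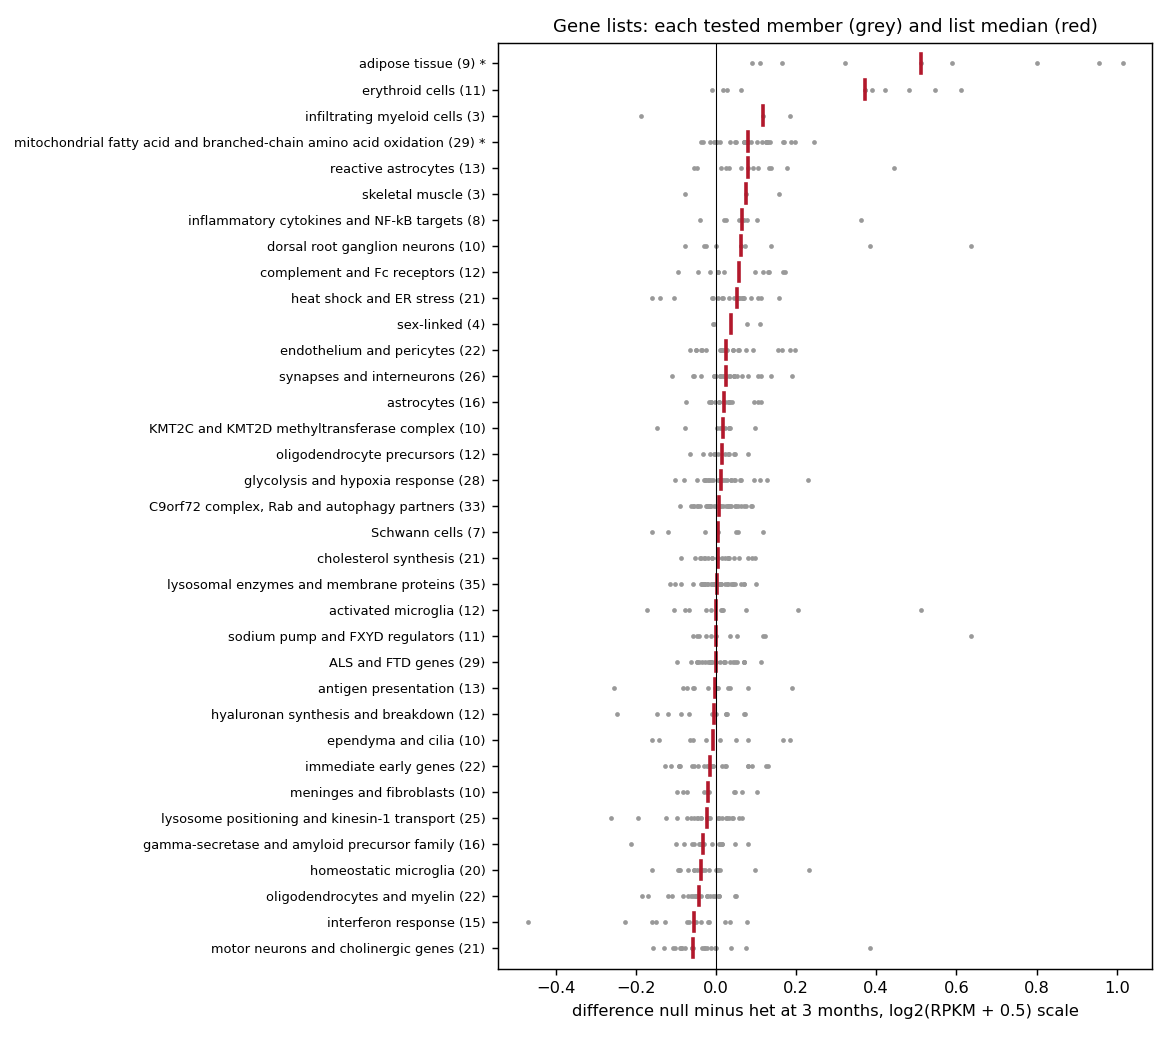
Log2(RPKM + 0.5) difference, null minus heterozygous, at 3 months (horizontal axis) for the tested members of each gene list (vertical axis with the number tested, a grey point per gene, a red bar for the list median). List medians lie between -0.06 and 0.37 except for the adipose list at 0.51, and the lists marked with a star were written after values were seen.

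Neuronal lists had medians near 0. Of 21 motor neuron and cholinergic genes, 0 had an unadjusted limma p under 0.05, although 18 were negative, with a median of -0.06. Without null replicate 1, 5 of the 21 (23.8%) were lower at that threshold and 0 higher, against 11.6% of all genes in both directions. The median was then -0.04. Chat, the enzyme that makes acetylcholine, measured 11.8, 11.04 and 11.4 RPKM in null cords and 12.3, 12.2 and 12.5 RPKM in heterozygous cords, so its libraries did not overlap. Slc5a7, the choline transporter, overlapped at 15.2, 13.7 and 15.7 RPKM in null cords and 14.2, 15.4 and 16.2 RPKM in heterozygous cords. Of 26 tested genes of synapses and interneurons 0 had such a p, with a median of 0.02. Without null replicate 1, 6 were higher and 2 lower at that threshold, or 30.8%, against the same 11.6%. Of 22 tested immediate early genes 0 had such a p either, with a median of -0.01. Among 29 genes linked to amyotrophic lateral sclerosis or frontotemporal dementia, 2 were higher, Tmem106b among them, and Kif5a was lower at the unadjusted threshold. That is 10.3% of the list, against 6.51% of all genes, and the median was 0.00. The count was 1 (3.45%) without null replicate 2, against 4.90% of all genes. Without null replicate 1 it was 5 (17.2%), against 11.6%. Tmem106b, a lysosomal membrane protein, measured 23.96, 24.4 and 24.2 RPKM in null cords and 23.5, 22.8 and 22.8 RPKM in heterozygous cords.

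Glial and vascular lists were close to 0 too, with single genes beyond the unadjusted threshold. Aqp4, the water channel of astrocyte end-feet, measured 90.7, 96.0 and 96.2 RPKM in null cords, against 88.6, 87.5 and 85.5 RPKM in heterozygous cords and 85.7, 84.1 and 82.8 RPKM in wild type cords. Its null libraries lay above the other 6 (log2 difference 0.11, SE 0.03), while the median of 16 astrocyte genes was 0.02. Of 13 tested reactive astrocyte genes, S1pr3, a sphingosine phosphate receptor, had such a p, and the median was 0.08. Enpp6, an enzyme of newly formed oligodendrocytes, measured 9.37, 8.71 and 9.03 RPKM in null cords and 10.8, 9.93 and 10.3 RPKM in heterozygous cords. It was the 1 such gene of 22 in oligodendrocytes and myelin, where 17 were negative and the median was -0.04. Without null replicate 1 there were 4 of 22 (18.2%), all lower, against 11.6% of all genes in both directions. Of 12 precursor genes 0 had such a p.

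Of 22 endothelial and pericyte genes, 3 had an unadjusted p under 0.05 with higher values in null cords, namely Emcn, Igfbp7 and Ly6c1, against 2.65% of all genes, and the median was 0.03. Emcn, a sialoprotein of venous and capillary endothelium, measured 5.01, 5.03 and 5.11 RPKM in null cords and 4.26, 4.52 and 4.24 RPKM in heterozygous cords. Igfbp7 measured 13.4, 13.2 and 14.7 RPKM in null cords and 11.8, 11.8 and 13.03 RPKM in heterozygous cords. Erythroid genes had the highest median of the 33 lists, 0.37 over 11 genes. It was 0.59 without null replicate 1 and 0.23 without null replicate 3, and lay between these without any other null or heterozygous library. Alas2, the first enzyme of heme synthesis in red cells, measured 1.01, 1.38 and 2.03 RPKM in null cords and 0.602, 0.757 and 0.953 RPKM in heterozygous cords. The summed level was 359 to 520 RPKM in null libraries and 308 to 386 RPKM in heterozygous libraries, so the groups overlapped. Globin genes are near copies, and reads may be split among them. The part of blood left in the tissue in the endothelial values was not tested.

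The remaining lists held few such genes. Cholesterol synthesis had 1 of 21, Nsdhl, with 14.3, 14.4 and 14.6 RPKM in null cords and 13.2, 13.6 and 13.5 RPKM in heterozygous cords. Heat shock and ER stress (21 tested), meninges and fibroblasts (10), ependyma and cilia (10), Schwann cells (7), skeletal muscle (3) and sex-linked genes (4) had 0. The heat shock and ER stress count depended on single null libraries. Without null replicate 1, 9 of 21 (42.9%) were higher in null cords, against 11.6% of all genes in both directions. Without null replicate 3, 2 (9.52%) were lower, against 4.23% of all genes in both directions. The medians were 0.12 and -0.02, against 0.05 with all libraries. Mitochondrially encoded genes were not analysed here. Over the 33 lists with a tested member, the 2 written later left out, 510 distinct genes were tested, 1 passed the adjusted threshold, and 27 had an unadjusted p under 0.05, or 5.29%, against 6.51% of all genes. Of these 27, 14 were higher and 13 lower in null cords. In 58 genes, or 11.4%, the libraries did not overlap, against 11.9% of all genes. Without null replicate 1, 78 of 508 listed genes had such a p, or 15.4%, against 11.6% of all genes, and without heterozygous replicate 3, 47 of 508, or 9.25%, against 6.66%. The median lay within 0.1 of 0 in 31 of the 33 lists.

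Genes of fat tissue were high in null replicate 1 alone. Of a list of 23 adipose genes, written after values of this library were seen, 22 were above all 8 other libraries of that age, the exception being Lep, and 12 were under 0.5 RPKM in all of those 8. The summed level was 173 RPKM in null replicate 1, 27.1 and 28.6 RPKM in null replicates 2 and 3, and 27.7 to 30.9 RPKM in heterozygous libraries. Ucp1, the uncoupling protein of brown fat, measured 15.6 RPKM in null replicate 1 and at most 0.119 RPKM elsewhere. Fabp4, a fatty acid carrier of adipocytes, measured 52.5 RPKM there and at most 0.534 RPKM elsewhere. Adipoq, the hormone adiponectin, measured 3.02 RPKM there and at most 0.0818 RPKM elsewhere. Pck1, an enzyme of glyceride and glucose synthesis, measured 7.27 RPKM there and at most 0.0666 RPKM elsewhere. Of the 23, 9 passed the expression filter, and 0 of them had an unadjusted p under 0.05. All 12 libraries at 17 months lay between 25.3 and 37.7 RPKM in summed level.

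Null replicate 2 stood higher in some genes of peripheral myelin. Prx, periaxin of the myelin made by Schwann cells, measured 1.56 RPKM there and at most 0.187 RPKM in the other 8 libraries. Pmp2, a fatty acid binding protein of the same myelin, measured 0.579 RPKM there and at most 0.197 RPKM elsewhere. Of 12 Schwann cell genes, 5 were highest in null replicate 2, Pmp22 and Ncmap also among them. Pmp22 differed little, at 56.6 RPKM there and at most 51.4 RPKM elsewhere. Other members of the list were not raised there, and Sox10 and Ngfr were lowest in that library. Sox10 measured 34.9 RPKM there and at least 38.2 RPKM elsewhere, and Ngfr 0.839 RPKM there and at least 0.902 RPKM elsewhere. Of the 12 Schwann cell genes, 7 were tested, with a median log2 difference of 0.01 between null and heterozygous cords. The part that fat or nerve tissue had in the other null values was not tested, and the leave-out values above stand in its place.

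On chromosome 7, null replicate 1 stood above every other library of its age over neighbouring genes. The stretch reached from 57407672 to 67372858 (GRCm38), or 9.97 Mb, and held 33 genes at 1 RPKM or more. In the 25 of them outside the run from Snrpn to Magel2, null replicate 1 lay above all 8 other libraries. Leaving out Ube3a, the other 24 stood at 1.34 to 1.66 times the mean of those 8, with a median of 1.49. The 12 genes on either side stood at 0.887 to 1.21 times. Apba2, an adaptor of the amyloid precursor protein, measured 55.8, 37.4 and 37.2 RPKM in null cords and 37.1, 36.9 and 37.8 RPKM in heterozygous cords. Tjp1, a scaffold of tight junctions, measured 25.3, 17.0 and 17.6 RPKM in null cords and 16.03, 16.3 and 17.3 RPKM in heterozygous cords.

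The remaining 8 genes of the stretch, from Snrpn to Magel2, stood apart from the rest. They lay at 0.916 to 1.14 times the mean of the other 8 libraries, with a median of 0.988. A230057D06Rik among them was also highest in null replicate 1, at 2.86 RPKM against at most 2.70 RPKM elsewhere. Snrpn measured 159, 160 and 164 RPKM in null cords and 162, 161 and 156 RPKM in heterozygous cords. Ndn measured 113, 117 and 116 RPKM in null cords and 114, 112 and 112 RPKM in heterozygous cords. Ube3a, a ubiquitin ligase next to them, had the largest ratio, 1.82. It measured 22.2, 11.9 and 13.1 RPKM in null cords, against 11.9, 12.4 and 11.4 RPKM in heterozygous cords and 11.7, 12.8 and 12.4 RPKM in wild type cords. As background, Snrpn, Ndn and Magel2 are imprinted genes expressed from the paternal copy, and Ube3a is expressed mainly from the maternal copy in neurons. In the group comparison Ube3a had a log2 difference of 0.34 (limma adjusted p = 0.796), and 0 of the 33 genes passed. No library at 17 months showed the stretch. There the median of the 25 genes outside the run from Snrpn to Magel2 lay between -0.0461 and 0.0545 on the log2 scale.

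**Figure D4:**
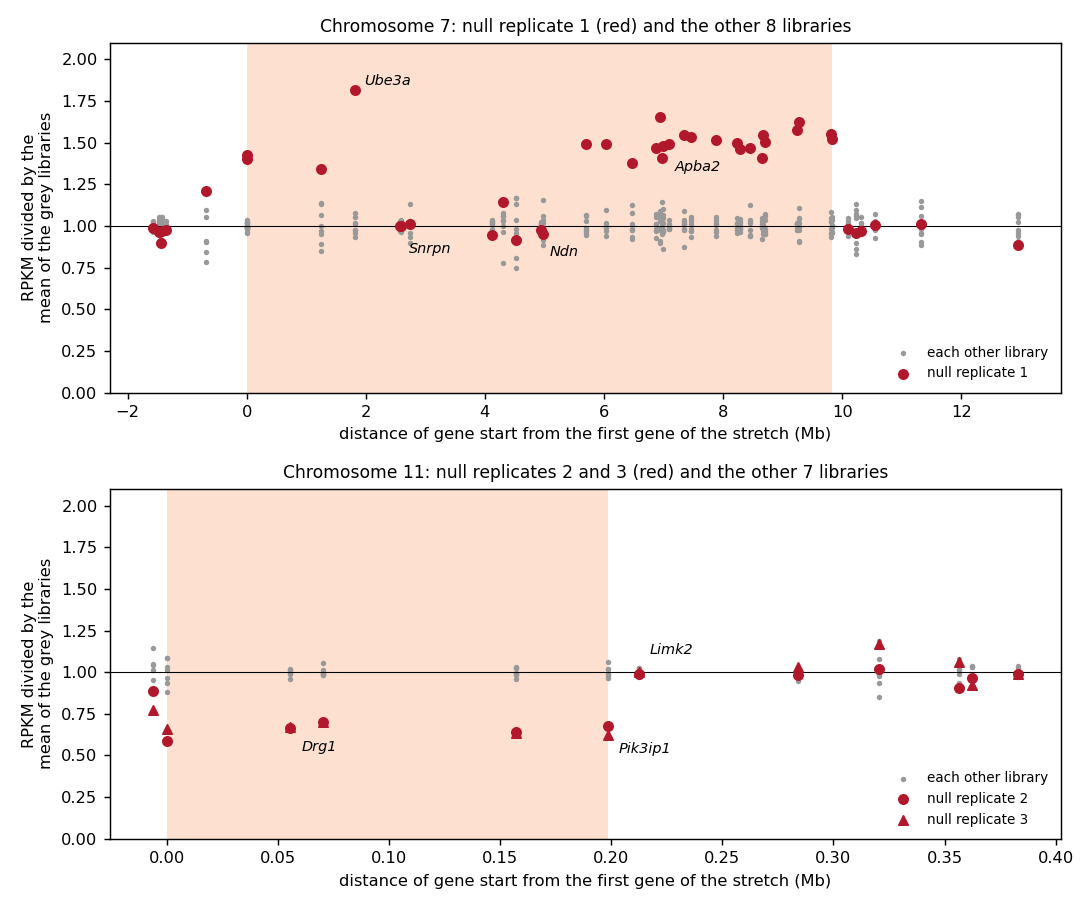
Level of each gene relative to the mean of the unaffected 3 month libraries (vertical axis, ratio, the stretch shaded) against distance of its start from the first gene of the stretch in Mb (horizontal axis), for null replicate 1 on chromosome 7 and null replicates 2 and 3 on chromosome 11. Most genes of the chromosome 7 stretch lie near 1.49, the genes from Snrpn to Magel2 near 0.988, and 5 genes on chromosome 11 between 0.588 and 0.701.

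On chromosome 11, null replicates 2 and 3 were lower over 5 neighbouring genes, Sfi1, Drg1, Eif4enif1, Patz1 and Pik3ip1, which lie from 3131850 to 3342971. The ratio to the mean of the other 7 libraries was 0.588 to 0.701. Drg1, a GTP-binding protein, measured 46.9, 31.4 and 31.6 RPKM in null cords and 47.2, 46.6 and 47.7 RPKM in heterozygous cords, so null replicate 1 lay with the heterozygous libraries. With all null libraries in the fit none of the 5 passed, and without null replicate 1 all 5 did. Without the genes of both stretches the 2 calls were the target and Plekhm2 as before. A scan of running medians over 5 neighbouring genes, covering 12594 genes, found such stretches in 3 null, 0 heterozygous and 0 wild type libraries at 3 months. At 17 months it found some in 4 null, 3 heterozygous and 4 wild type libraries, but most in a pair of libraries. Of 12622 windows per library, null replicate 2 had 497 and wild type replicate 4 had 205, while the other null libraries had 6 to 23, the heterozygous libraries 0 to 11 and the other wild type libraries 3 to 12. What lies behind either stretch was not tested.

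At 17 months, in other mice and on another instrument, null and heterozygous cords differed past the adjusted threshold in 1 of 14012 genes, the target, or 0.00714%. An unadjusted limma p under 0.05 was met by 1016 genes, or 7.25%, with 4.17% higher in null cords and 3.08% lower. The libraries of the 2 groups did not overlap in 4.15% of genes, 1.71% higher in null cords and 2.44% lower. The adjusted count at this age was 90 without null replicate 1 and 54 with array weights. Plekhm2 measured 32.8, 34.0, 35.3 and 35.5 RPKM in null cords, against 41.2, 43.0, 40.1 and 39.9 RPKM in heterozygous cords and 41.0, 39.9, 40.3 and 40.9 RPKM in wild type cords. All null libraries were again below all others. The log2 difference was -0.25 (SE 0.05, limma adjusted p = 0.368, unadjusted p = 0.000226), and the exact permutation p was 0.0286, the smallest that 4 against 4 libraries allow. It passed with array weights (limma adjusted p = 0.0410).

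The named genes, Plekhm2 included, kept their direction in part. Of the 12 higher genes 9 kept it at 17 months, 2 of them with an unadjusted limma p under 0.05, against 4.17% of all genes. Of the 12 lower genes 7 kept it, 4 of them with such a p, against 3.08% of all genes. None of these genes had such a p in the opposite direction. The share of all genes with the same direction at both ages was not counted. Cxcl12 measured 11.1, 16.8, 12.5 and 10.9 RPKM in null cords and 8.45, 9.55, 8.41 and 7.65 RPKM in heterozygous cords at 17 months, with no overlap, and the log2 difference was 0.54 (SE 0.13, limma adjusted p = 0.371). Ldha measured 41.8, 67.8, 43.1 and 52.4 RPKM in null cords and 42.7, 35.2, 41.4 and 39.9 RPKM in heterozygous cords, so that 1 null library overlapped. Kcnj14 measured 8.50, 7.66, 8.03 and 10.2 RPKM in null cords and 10.3, 10.6, 10.3 and 10.3 RPKM in heterozygous cords. Prr18 measured 38.9, 31.5, 38.8 and 37.4 RPKM in null cords and 41.6, 41.8, 43.4 and 40.6 RPKM in heterozygous cords. Abca8a measured 3.25, 2.77, 4.85 and 3.75 RPKM in null cords and 5.38, 4.90, 4.74 and 4.92 RPKM in heterozygous cords, where null replicate 3 overlapped.

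Fxyd2 and Psen2 overlapped between the groups in the older mice. Fxyd2 measured 0.559, 0.754, 0.622 and 0.704 RPKM in null cords and 0.810, 0.475, 0.529 and 0.670 RPKM in heterozygous cords at 17 months. Psen2 measured 6.40, 7.02, 8.58 and 8.0 RPKM in null cords and 7.11, 6.60, 7.15 and 7.16 RPKM in heterozygous cords, a log2 difference of 0.08 (SE 0.11). The log2 differences at 17 months were 0.06 for Hadhb, -0.01 for Etfa and 0.00 for Hibch (SE 0.10, 0.09 and 0.09). Some list medians lay further from 0 than at 3 months. The median at 17 months was 0.35 for 20 homeostatic microglial genes, 0.70 for 15 genes of complement and Fc receptors and 2.22 for 12 erythroid genes. Null replicate 2 stood apart there. Its 20 microglial genes summed to 1107 RPKM, against 469.5 to 573 RPKM in the other null libraries and 368 to 540.4 RPKM in heterozygous libraries. Its 12 erythroid genes summed to 4612 RPKM, against 656 to 1575 RPKM in the other null libraries and 303 to 482 RPKM in heterozygous libraries. Without it the medians were 0.22 for microglia, 0.37 for complement and Fc receptors and 1.71 for erythroid genes. Sex-linked genes, 5 tested at this age, had a median of -0.83, with 1 positive. That median was -0.28 without null replicate 2 and -1.69 without heterozygous replicate 1. The part of sex in the 17 month differences was not tested. The ages differ in platform and table, so a difference between ages was not tested.

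**Figure D5:**
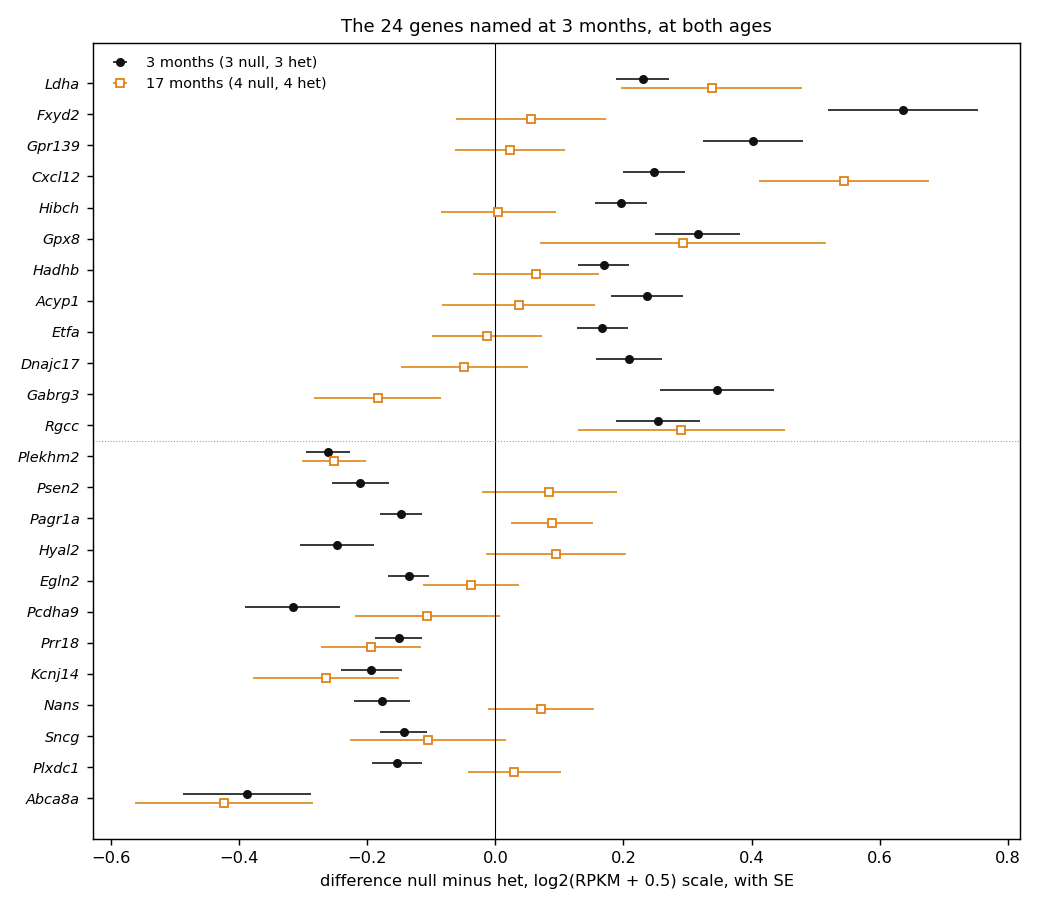
Log2(RPKM + 0.5) difference, null minus heterozygous, with its SE (horizontal axis), of the 24 named genes (vertical axis, those higher in null cords at 3 months above the dotted line) at 3 months (black circles) and 17 months (orange squares). Plekhm2 lies at -0.26 and -0.25, Cxcl12 at 0.25 and 0.54, and Fxyd2 at 0.64 and 0.06.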

How the data were processed

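Per age, 1 table of RPKM values made by the authors was deposited, and nothing says whether these are RPKM or FPKM. Per the submitters' processing notes, the tools were TopHat2 2.0.8b and Partek, and the builds mm9 and mm10 appear there without being tied to a table. Annotation, filters and strand use: not given in the sources used here. Genes whose names had become dates (26 per table, 0.272% of the 3 month total and 0.264% of the 17 month total) were dropped. This left 19747 genes at 3 months and 20153 at 17 months, with 0 unused columns.

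Groups came from the genotype labels, and each library was taken as a mouse, since the design text counts mice. The filter kept genes reaching 0.5 RPKM in 3 of the 6 null and heterozygous libraries (4 of 8 at 17 months). The log2(RPKM + 0.5) scale understates changes of low genes. The model, limma 3.58.1 in R 4.3.3 with statmod 1.5.0, used a trended and robust prior and held the 3 genotypes of an age, and two-sided p-values were adjusted by Benjamini-Hochberg (threshold 0.05). They measure the spread between these libraries. Exact permutation tests, two-sided, came from SciPy 1.17.1 (Python 3.11.15, pandas 2.3.3). Read counts were not used here. Some reads had been apportioned between genes, and relative depth was taken as the most common ratio of values under 0.1 RPKM, which agreed within 1% in 28 of 28 checks between libraries. No counting interval can be given for an RPKM.

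The genes named are the target, the 12 with the smallest limma p in each direction among genes with groups that did not overlap, a mean of at least 1 RPKM in a group and no clone name, up to 3 members per list by p, and Smcr8 and Wdr41. Some members that this rule would name are not reported here. The comparison, its genes and the 35 gene lists were chosen with earlier results of these data known. The lists for fatty acid oxidation and adipose tissue, the stretches and the search of single libraries came after values were seen, as did the members of lists given to complete a pathway. Positions are from the GENCODE annotation of GRCm38, matched by symbol for 19454 of 19747 genes, and are used for names and neighbours. The model was tested on simulated data. Alternatives were the pseudocount (0.1 or 1), the filter (none, or 1 RPKM), median centring, quantile normalization, limma without trend and robust prior, a model of 2 groups, array weights, a replicate block and each library left out. Removal of the genes of both chromosomal stretches, and list counts and medians at 17 months without each library, were added after seeing the data. Plots were drawn with matplotlib 3.10.9.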

Additional observations from a re-analysis of the deposited data

Results flagged for a closer look

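Among the named genes, 5 groups of 4 libraries at 17 months held a library whose gap to its nearest neighbour, divided by the range of the group, was above Dixon's critical value for groups of 4. They were found in 81 groups looked at, or 6.17%, where chance gives about 1 in 20. Smcr8 measured 6.20 RPKM in null replicate 2, the lowest of its group. Psen2 measured 6.60 RPKM and Kcnj14 10.6 RPKM in heterozygous replicate 2, the lowest and the highest of that group. Ldha measured 52.0 RPKM in wild type replicate 4, the highest of its group, and Hibch 10.1 RPKM in the same library, the lowest. The groups at 3 months hold 3 libraries and were too small for this look.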

How the results depend on the processing

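The target gene kept its direction and its call in 20 of 20 alternatives at 3 months and in 22 of 22 at 17 months. At 3 months 2 genes were called with pseudocounts of 0.1 and 1, the stricter filter, median centring, array weights and without the genes of both stretches. The count was 1, with Plekhm2 lost, with no filter on low values, quantile normalization, limma without trend and robust fit, and only the 2 groups fitted. Leaving out 1 library gave 1 to 7, with 7 without null replicate 1, 3 without wild type replicate 1 (Itgb4 added) or 2 (Fxyd2 added) and 1 otherwise. The cause was not tested. At 17 months the count was 54 with array weights (42 higher and 12 lower), and leaving out 1 library gave 1 to 90, the 90 without null replicate 1 (78 higher and 12 lower), and 1 otherwise. Over the 24 named genes and 480 alternatives at 3 months, 469 gave the same call and direction, 10 lost the Plekhm2 call, 1 gained Fxyd2 and 0 reversed.

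With the replicate number as a block the count at 3 months was 2. Replicates with the same number correlated at 0.113, 0.0247 and 0.149 between null and heterozygous cords at 3 months, not all over 0.1, so the numbers were not taken as pairs.

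Among other members named by p, some small log2 differences changed sign. With array weights Smcr8 was 0.0097 and Ddx3y 0.0044. Leaving out 1 library gave ranges of -0.0337 to 0.0204 for Smcr8, -0.0537 to 0.0580 for Ddx3y, -0.146 to 0.0166 for Igf2, -0.145 to 0.0072 for Myh7, -0.184 to 0.0152 for Psmb8 and -0.000196 to 0.341 for Psmb9. The medians of the lists moved in 12 of 280 alternatives. With read totals unknown, low genes could not be given a counting error, and null replicate 3 was the shallowest library.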
